A study of Nannochloropsis oceanica with 6 samples.

Results

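Mitochondrial carriers are described here in Nannochloropsis oceanica CCMP1779, a unicellular marine alga, as transcript levels in darkness and shortly after a pulse of blue or red light. The carriers comprised 48 gene models, out of 9087 models tested and 10641 listed. They were chosen by description: the product name, the InterPro description (a protein domain database) or the KOG description (clusters of orthologous eukaryotic genes) had to name a mitochondrial carrier, a mitochondrial substrate carrier or a mitochondrial solute carrier. The mean over the 6 libraries had to reach 1 FPKM (sequenced fragments scaled to transcript length and library size). Of 50 models with such a description, 2 stayed under that level. Models are named here by the transcript identifiers of the deposited table. Models 588458, 582268 and 580823 were also named outright when the carriers were chosen, and all 3 met the description and the level.

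Each of 3 groups held 2 libraries made from polyadenylated RNA with a strand-specific kit. Every culture, those kept dark included, had grown at 22 °C under 12 h of light (30 µmol s−1 m−2) alternating with 12 h of darkness, and had then spent 36 h in the dark from zeitgeber time 12 h. The blue and the red group next received 5 min of light of that colour at 20 µmol s−1 m−2, while the dark group received none, and all stood for another 15 min in darkness before harvest. The labels number the replicates without saying that they came from separate cultures, so a p-value here reflects the spread of the libraries at hand, part or all of which may be technical.

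The mitochondrial carrier family, called SLC25 in animals, consists of small proteins of the inner mitochondrial membrane that pass metabolites between the cytosol and the matrix, often by exchanging one solute for another. Its members link the citrate cycle, the respiratory chain and amino acid metabolism to the rest of the cell: the ADP/ATP carrier exports ATP made by respiration, the phosphate carrier brings in the phosphate needed to make it, and the carboxylate and aspartate/glutamate carriers move carbon skeletons and reducing equivalents. Some relatives are known from peroxisomes and plastids of other organisms. Neither the solute nor the place of any of the algal proteins was measured here, and the names of substrates below are those of the KOG family that a model was assigned to.

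The models were chosen by their descriptions, so agreement among these descriptions does not test the label of the family. InterPro gave 43 of the 48 a substrate/solute carrier description. The words of the choice do not match that spelling, so these 43 were included through their product name or KOG family. Another 3 had a mitochondrial carrier domain, words that the choice itself used. The other 2 were included through their product name and KOG family, while InterPro listed a cyclic nucleotide-binding domain for 597258 and an RNA recognition motif for 669038. The models fell into 20 KOG families, with 4 models in none, and lay on 27 scaffolds. Near the threshold, 592237 (0.585 FPKM in dark, 2.84 in blue and 0.664 in red libraries on average) and 583860 (0.582, 4.14 and 0.926 FPKM) were just inside it, and 641618 (a mean of 0.751 FPKM over all libraries) and 46721 (0.244 FPKM) just outside. Together with 588458, 592237 and 583860 reached the threshold only through the blue libraries, so these 3 had to differ between groups, and counts are also given for the 45 others where they matter.

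The files hold no counts. From the steps between low values, 1 FPKM stood for about 16.8 and 18.3 fragments per kb of transcript in dark, 27.9 and 20.1 after blue and 28.4 and 22.3 after red light (replicates 1 and 2, the order kept throughout). Between the replicates, carriers had a median absolute log2 difference of 0.09 (dark), 0.17 (blue) and 0.10 (red), and a largest one of 0.50, 0.90 and 0.34. Of the 48 models, 19 overlapped another model, 8 of them on the same strand. Neither the labels nor the file headers give the strand setting of the counting, and how reads that fit several carriers were shared out was not tested.

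After blue light most carriers changed, and more of them rose than fell. In limma's test at an adjusted p under 0.05, 40 of 48 carriers were called in blue against dark, where 76.1% of all tested models were. Of these, 29 rose (60.4% of the carriers, against 39.9% of all models) and 11 fell (22.9%, against 36.2%). A rise of at least 4-fold on the log2(FPKM + 1) scale was called for 6 carriers, with 3.8% of all models past that mark. They were 588458, which reached 1 FPKM only through the blue libraries, 580823, 586271, 588514, 605060 and 577902. A fall of that size was called for 1, the oxodicarboxylate carrier 594538, with 1.6% of all models past it. The median log2 difference was 0.46 over the carriers and 0.05 over all tested models. Among the 45 carriers that reached 1 FPKM without the blue libraries, 26 rose and 11 fell. In bulk RNA, a different number of cells with a transcript and a different amount per cell cannot be told apart.

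Red light moved fewer carriers than blue light and by less, and the same was seen over all tested models. The calls after blue and after red covered 83.3% and 72.9% of the carriers, and 76.1% and 63.3% of all models. The median absolute log2 difference was 0.88 and 0.58 over the carriers, and 0.61 and 0.41 over all models. Against dark, 35 carriers were called, with 63.3% of all models, of which 23 rose (background 33.7%) and 12 fell (29.5%), and the median log2 difference was 0.26 (0.04 over all models). Both comparisons with dark use the same 2 dark libraries. The direct comparison of the pulses called 27 carriers (background 50.7%): 19 were higher after blue (27%) and 8 lower (23.7%), with a median of 0.15 over the carriers and 0.03 over all models. The 19 include 588458, 583860 and 592237, which reached 1 FPKM only through the blue libraries and so had to be higher there. The authors' deposited table gave a q-value under 0.05 to 31 carriers for blue against dark (59.3% of the tested models) and to 27 for red against dark (45.8%), and each of these was also called here.

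The split between rises and falls depended on how the libraries were scaled. The median log2 value of all models for blue against dark was 0.05 in FPKM, 0.27 in TPM (scaled to an equal sum in every library), −0.06 after quantile normalization and −0.22 when each library was centred on its median model. In TPM 33 carriers were then called up and 8 down (50.1% and 27.2% of all models), after quantile normalization 22 and 13 (34.4% and 39.5%), and after centring 22 and 15 (29.1% and 47.3%). For red against dark, where these medians were 0.04, 0.36, 0.01 and −0.12, the calls were 31 up and 9 down in TPM (54.8% and 16.1% of all models), 20 up and 13 down after quantile normalization (30.3% and 30.4%) and 19 up and 13 down after centring (24.8% and 38.5%). Between the pulses, 17 were higher after blue and 14 lower in TPM (21.8% and 29.3% of all models) and after centring (20.9% and 30.2%), and 19 and 14 after quantile normalization (22.9% and 28.3%). No carrier called in FPKM was called in the opposite direction under any of these 3 scalings. The phosphate carrier 613184, not called after blue in FPKM, was called up in TPM (0.31, limma adjusted p = 0.00352) and down after centring (−0.21, adjusted p = 0.0359).

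Over the 3 comparisons the carriers had 102 calls, of which 79 held in all 14 alternative settings of the analysis (the 3 scalings, other pseudocounts and filters, and leaving out libraries among them). The 23 others, in 20 models, were lost in at least 1 setting. Among these were the blue calls of 591727 (0.18 after quantile normalization and 0.20 after centring) and 577134 (0.12 after centring), the red call of 572578 (both of these scalings, without dark replicate 2 and without red replicate 1, log2 0.25 to 0.41) and the difference of 669615 between the pulses (0.33 without red replicate 1). The rest are given with their model. The pseudocount moved the differences of low models: with 0.1 and 5 in place of 1, the blue rise was 6.83 and 4.05 for 588458, and the excess of blue over red was 3.43 and 1.54 for 582268.

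Ratios of FPKM between carriers of a library do not change when the whole library is multiplied by 1 factor, as TPM does, though quantile normalization alters them. These ratios differed widely between the groups. The 48 models summed to 3515 and 3468 FPKM in dark, 3962 and 4597 FPKM in blue and 2963 and 3190 FPKM in red libraries, which was 0.458% and 0.452%, 0.634% and 0.695%, and 0.504% and 0.518% of the FPKM of all tested models. In dark, 1 model dominated: the oxodicarboxylate carrier 594538 held 40.2% and 39.0% of the summed carrier FPKM. Its share was 4.31% and 4.07% after blue and 20.4% and 20.3% after red light. The ADP/ATP carrier 586271 went the other way, with 1.93% and 2.11% in the dark libraries, 25.8% and 26.7% in the blue ones and 14.8% and 14.9% in the red ones. The ratio of 586271 to 594538 was 0.0480 and 0.0541 in the dark libraries, 5.97 and 6.55 in the blue ones and 0.726 and 0.737 in the red ones. For both models the red libraries thus lay between the dark and the blue ones. These shares are descriptions and were not tested.

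**Figure D1:**
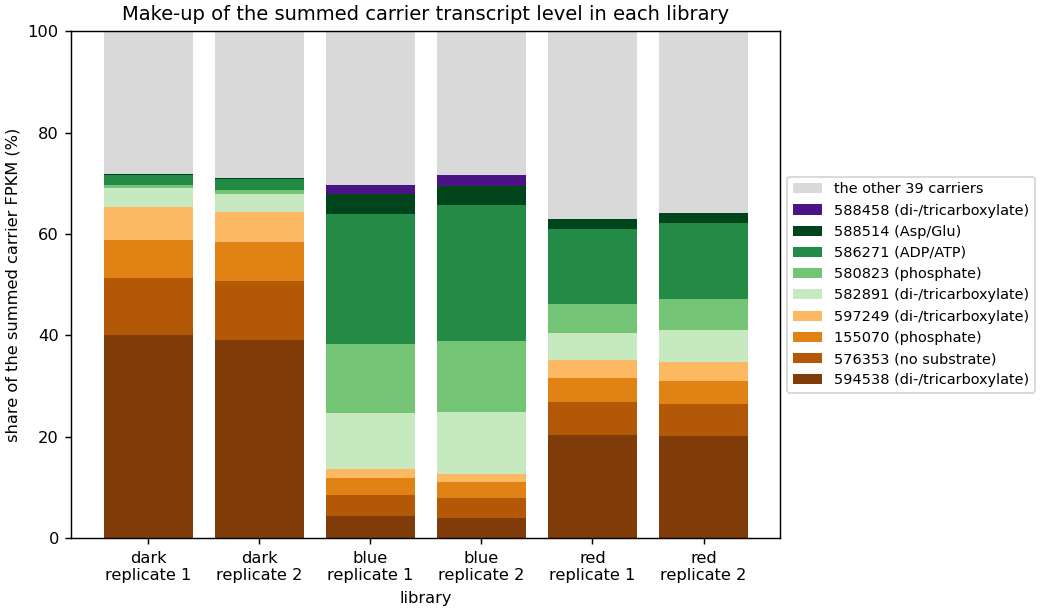
Each bar is 1 library and shows the share (%) of the summed FPKM of the 48 carriers held by 9 named models and by the other 39. The brown models (594538, 576353, 155070 and 597249) take most of the dark bars and little of the blue bars, the green ones (586271, 580823, 582891 and 588514) the reverse, and 588458 (purple) is visible in the blue bars only.

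The carriers fell into classes by the 3 calls. A carrier is called blue-only here when it changed after blue and was not called after red, and when the direct comparison of the pulses was called in the same direction. By this rule 6 carriers rose after blue only (background 7.62%), namely 588458, 605060, 583860, 592237, 602996 and 674000, and 2 fell after blue only (7.55%), namely 579028 and 552976. Without the 3 models that passed the level through the blue libraries, 3 blue-only rises were left. Shared responses, called against dark in the same direction after both pulses, were the larger class, with 20 rises and 9 falls. Among them, 9 rises (background 13.1%) and 2 falls (9.28%) were larger after blue, 2 rises (1.54%) and 1 fall (1.97%) were larger after red, and for 9 rises (13.2%) and 6 falls (13.4%) the pulses were not told apart. In 2 carriers, 582268 and 579202, the level rose after blue and fell after red (1.52%). After red only, 2 carriers rose (2.88%), namely 586564 and 597789, and 1 fell (2.04%), namely 613184. Of the others, 572578 and 543337 were called after 1 pulse without a called difference between pulses, and 546943, 578990, 676368 and 591724 were called after neither. Of the carriers, 12.5% were blue-only rises, and 18.75% each were shared rises larger after blue or not told apart. The opposite class, red-only rises and shared rises larger after red held 4.17% each. All of these shares were above those of all models, though the blue-only rises include the 3 models that had to be higher after blue. Among the 45 other carriers, 3 were blue-only rises, a share below the 7.62% of all models, which were not filtered in that way. Blue-only falls and shared falls larger after blue, also 4.17% each, were below the shares of all models. Shares were close for falls larger after red (2.08%), falls not told apart (12.5%) and red-only falls (2.08%). These differences were not tested, and many classes held only 1 or 2 carriers.

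**Figure D2:**
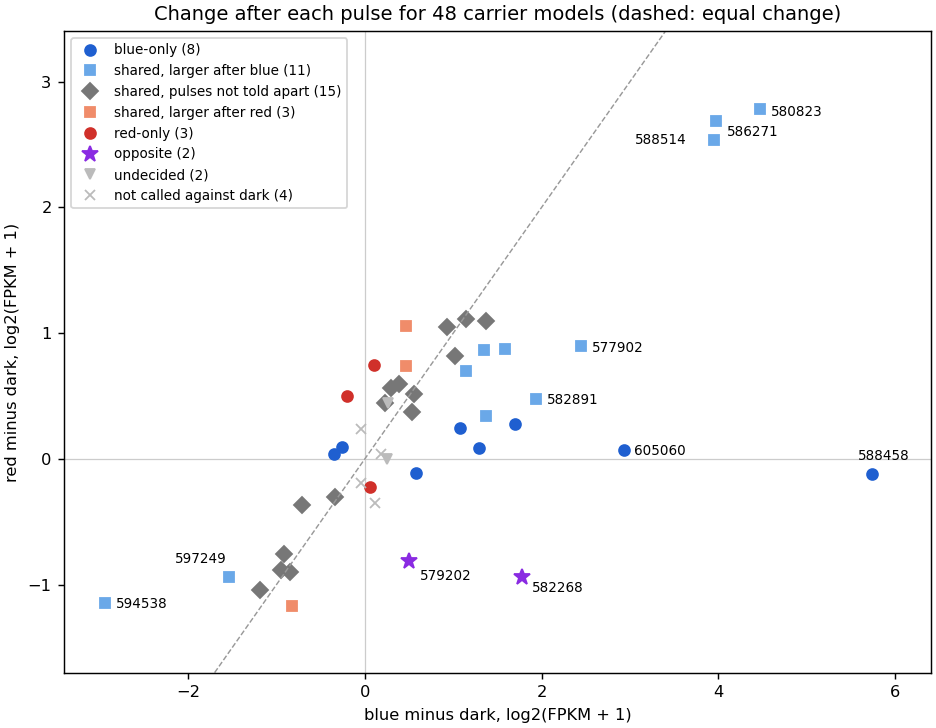
Each point is 1 of the 48 carriers, placed by its difference from dark after blue (x axis) and after red light (y axis), both on the log2(FPKM + 1) scale, with the class in colour and the dashed line marking equal change. 588458 and 605060 lie far to the right at a red change near 0, 580823, 586271 and 588514 rose after both pulses, and the stars 582268 and 579202 lie below 0 on the red axis and above 0 on the blue axis.

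The ADP/ATP carrier, which swaps cytosolic ADP for ATP from the matrix, was represented by the single model 586271 (scaffold 8, 665552 to 667133, plus strand). It stood at 67.7 and 73.3 FPKM in dark, 1021 and 1225 FPKM in blue and 439 and 477 FPKM in red libraries. The 3 groups did not overlap, and after blue light it was the carrier with the highest mean level, 1123 ± 145 FPKM (SD, n = 2). Its log2 rise was 3.97 (SE 0.11, limma adjusted p = 6.31e-09) after blue and 2.68 (adjusted p = 2.49e-07) after red, and it was 1.29 higher after blue than after red (adjusted p = 1.33e-05). It shares 83 bp on the same strand with a photosystem II PsbP model, 586272, which averaged 41.0, 51.9 and 43.3 FPKM in dark, blue and red libraries.

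The phosphate carriers, which import the phosphate used for ATP synthesis, moved apart. Model 580823 (scaffold 5, 634953 to 636460, minus strand) stood at 25.4 and 25.9 FPKM in dark, 539 and 648 FPKM in blue and 171 and 194 FPKM in red libraries. It rose by 4.47 on the log2 scale after blue (SE 0.11, limma adjusted p = 3.64e-09) and by 2.78 after red (adjusted p = 1.97e-07), with a difference of 1.69 between the pulses (adjusted p = 2.33e-06). Its relative 155070 (scaffold 2, 1436802 to 1441617, plus strand), the most abundant phosphate carrier in dark, was at 267 and 263 FPKM there, 129 and 144 FPKM in blue and 139.7 and 147 FPKM in red libraries. It fell after both pulses, by 0.95 (limma adjusted p = 7.32e-06) and 0.88 (adjusted p = 2.81e-05), with no called difference between them (−0.07, 95% interval −0.26 to 0.12). The remaining model, 613184, averaged 92.6 ± 4.46 in dark, 96.3 ± 5.63 in blue and 78.9 ± 2.58 FPKM in red libraries (SD, n = 2). It was not called after blue and fell by 0.23 after red (limma adjusted p = 0.0399), a call lost without any 1 of the red or dark replicates, in TPM (0.12, adjusted p = 0.158), after quantile normalization and without a variance trend. Blue exceeded red by 0.28 (limma adjusted p = 0.0198). That call was lost in TPM (0.19), after centring (0.18), without blue replicate 2 (0.22) and without red replicate 1 (0.25). Its red-only class held in 5 of 14 alternatives.

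The rank order of the phosphate carriers therefore changed within each pulsed library. The ratio of 580823 to 155070 was 0.0952 and 0.0985 in the dark libraries, 4.17 and 4.48 in the blue ones and 1.22 and 1.32 in the red ones. All 3 models together held 10.9% and 11.1% of the carrier FPKM in dark, 19.2% and 19.4% after blue and 13.1% and 13.2% after red light. Model 580823 overlaps 25 bp of the ribosomal protein S9 model 580822 on the opposite strand, which rose as well, from 39.0 FPKM in dark to 268 in blue and 186 in red libraries. Likewise, 155070 overlaps 30 bp of a synaptobrevin model, 575733, which fell from 485 to 158 and 189 FPKM. The part of the overlaps in these values was not tested.

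The carriers of di- and tricarboxylates, which exchange citrate cycle intermediates such as malate, citrate and 2-oxoglutarate across the inner membrane, were the largest class with a named substrate, and held the most divergent responses. Of 10 models, 7 rose and 2 fell after blue, where 39.9% and 36.2% of all models did, and 3 rose and 4 fell after red, near the 33.7% and 29.5% of all models. The 7 rises include 588458, which reached 1 FPKM only through the blue libraries. As a class the 10 models took 52.5% and 51.0% of the carrier FPKM in dark, 22.8% and 23.5% after blue and 32.6% and 33.4% after red light.

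Model 588458 (scaffold 10, 26456 to 28949, plus strand), of the tricarboxylate/dicarboxylate family, was near the limit of detection outside the blue group. Its values were 0.841 and 0.557 FPKM in dark, 76.9 and 104 FPKM in blue and 0.553 and 0.563 FPKM in red libraries. At most about 32.4 and 23.4 fragments lay behind the dark values and 36.0 and 28.8 behind the red values, against up to 4921 and 4788 in blue libraries. These are upper estimates, since they use the genomic span. Both blue libraries stood far above all 4 others, and the mean rose 129-fold in FPKM. The log2(FPKM + 1) rise of 5.74 (SE 0.16, limma adjusted p = 8.02e-09) understates it, and the authors' deposited table gave a log2 ratio of 7.01. Red and dark libraries were not told apart (−0.12, limma adjusted p = 0.533), whereas blue exceeded red by 5.86 (95% interval 5.50 to 6.22, adjusted p = 1.81e-08). It was blue-only in all 14 alternatives run, but it reached 1 FPKM only through the blue libraries and so had to be higher there. No other model overlaps it. The mean of 588458 in blue libraries, 90.4 ± 19.1 FPKM (SD, n = 2), passed that of its relative 597249 there, with ratios of 1.06 and 1.39, while in dark these were 0.0037 and 0.0027 and in red libraries 0.0053 and 0.0047.

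A second member of that family, 582268 (scaffold 6, 376769 to 378689, minus strand), moved in opposite directions after the 2 colours. It was at 3.21 and 2.82 FPKM in dark, 10.4 and 15.5 FPKM in blue and 1.23 and 0.959 FPKM in red libraries, without overlap of any groups. The log2 rise after blue was 1.77 (SE 0.18, limma adjusted p = 1.65e-05), the difference after red was −0.94 (adjusted p = 0.00156), and blue exceeded red by 2.71 (adjusted p = 3.36e-06). All 14 alternatives gave this opposite pattern. The red values rest on at most about 60.0 and 36.8 fragments.

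The most abundant rising member was 582891 (scaffold 6, 794123 to 795642, plus strand), at 129 and 126 FPKM in dark, 434 and 558 FPKM in blue and 158 and 201 FPKM in red libraries. It rose by 1.94 after blue (SE 0.14, limma adjusted p = 1.73e-06) and was 1.46 higher after blue than after red (adjusted p = 3.23e-05). Its red rise of 0.48 (limma adjusted p = 0.0141) was lost without dark replicate 2 (0.46, adjusted p = 0.0538), without red replicate 2 (0.31, adjusted p = 0.128), after centring and without the filter on low values, with adjusted p between 0.000266 and 0.128 over the alternatives. By contrast 597249 (scaffold 18, 22256 to 23946, plus strand) was at 227 and 206 FPKM in dark, 72.8 and 74.8 FPKM in blue and 105 and 120.0 FPKM in red libraries. It fell by 1.54 after blue (limma adjusted p = 6.19e-07), by 0.94 after red (adjusted p = 3.15e-05) and by 0.60 more after blue than after red (adjusted p = 0.000678). The ratio of 582891 to 597249 was 0.570 and 0.612 in the dark libraries, 5.96 and 7.46 in the blue ones and 1.51 and 1.67 in the red ones.

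Model 597249 overlaps 25 bp of the isocitrate lyase model 597248 on the opposite strand. Isocitrate lyase, the entry enzyme of the glyoxylate cycle, fell with it, from 553 FPKM in dark to 150.3 in blue and 228 in red libraries (log2 −1.87 and −1.27). On its other side 79 bp are shared with 597251, an undescribed model that fell too (278, 90.9 and 152 FPKM). The part of these overlaps in the values of 597249 was not tested. The last 2 members of the tricarboxylate/dicarboxylate family were less mobile: 669615 rose from 16.6 to 38.0 FPKM after blue and to 27.7 FPKM after red, and 591724, at 13.0, 12.6 and 15.5 FPKM, was called after neither pulse.

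The oxodicarboxylate carriers, known in yeast to move 2-oxoadipate and 2-oxoglutarate, included the carrier with the highest level in dark. Model 594538 (scaffold 15, 240041 to 242891, minus strand) was at 1411 and 1354 FPKM in dark, 171 and 187 FPKM in blue and 605 and 647 FPKM in red libraries. The groups were well apart, with the level after red between the others. It fell by 2.94 after blue (SE 0.09, limma adjusted p = 1.29e-08) and by 1.14 after red (adjusted p = 8.88e-06), and was 1.80 lower after blue than after red (95% interval −2.004 to −1.596, adjusted p = 6.08e-07). After quantile normalization the fall after red was smaller (−0.35, limma adjusted p = 0.00209), while that after blue was −2.43. In FPKM on the linear scale the dark level was 7.72 times the blue and 2.21 times the red level. No other model overlaps it.

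Its relatives were expressed at lower levels, and both were called as rises after blue. Model 579202 (scaffold 4, 840424 to 842156, minus strand) stood at 7.77 and 8.78 FPKM in dark, 10.8 and 13.7 FPKM in blue and 4.21 and 4.31 FPKM in red libraries. Like 594538 it fell after red, by 0.82 (limma adjusted p = 0.000589), and it was 1.32 higher after blue than after red (adjusted p = 4.47e-05). Its blue rise of 0.51 (limma adjusted p = 0.00652) was lost without dark replicate 1 (0.43, adjusted p = 0.0507), after quantile normalization (0.25, adjusted p = 0.112) and after centring (0.24, adjusted p = 0.112), with adjusted p between 0.000799 and 0.112 over the alternatives, so that its opposite class rests on those choices. Model 638972 rose alike after both pulses, from 9.09 to 13.9 and 13.4 FPKM, but shares 1107 bp on the same strand with an alternative oxidase model, 587919. The oxoglutarate/malate carrier 602996, at 29.8, 64.2 and 35.6 FPKM in dark, blue and red libraries, rose by 1.08 after blue (limma adjusted p = 9.56e-06) and was 0.84 higher than after red (adjusted p = 0.000149). Its red difference of 0.25 missed the threshold (limma adjusted p = 0.0585), and it was called as shared in TPM and without either blue replicate. It shares 142 bp on the same strand with a cytochrome b561 model, 532868, which averaged 178, 314 and 173 FPKM in dark, blue and red libraries (log2 0.80 after blue, limma adjusted p = 0.000241, and −0.05 after red, adjusted p = 0.731). The part of this overlap was not tested.

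**Figure D3:**
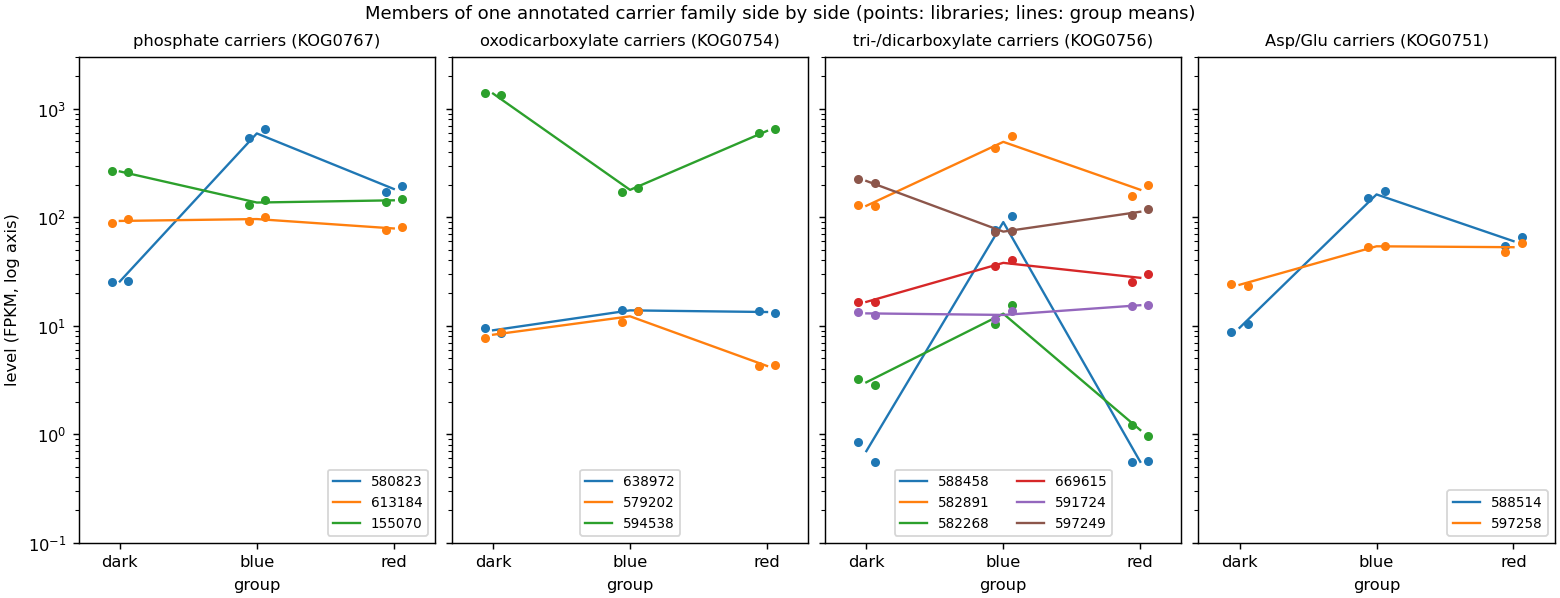
Levels (FPKM, log axis) of the members of 4 KOG families in dark, blue and red libraries, with points for libraries and lines joining group means. In the phosphate, oxodicarboxylate and tricarboxylate/dicarboxylate families at least 1 line rises from dark to blue where another falls, and 580823 crosses 155070. Both aspartate/glutamate lines rise, and the steeper one, 588514, crosses 597258.

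The aspartate/glutamate carriers, which in animals export aspartate for glutamate as a step of the malate-aspartate shuttle, both rose after both pulses. Model 588514 (scaffold 10, 63576 to 65420, plus strand) was at 8.74 and 10.4 FPKM in dark, 150.0 and 175 FPKM in blue and 54.9 and 65.6 FPKM in red libraries. It rose by 3.95 after blue (SE 0.12, limma adjusted p = 1.37e-08) and by 2.53 after red (adjusted p = 7.11e-07), a difference of 1.42 (adjusted p = 1.85e-05). Model 597258 was at 24.5 and 23.3 FPKM in dark, 53.3 and 54.8 FPKM in blue and 48.3 and 57.7 FPKM in red libraries. Its rises of 1.15 (limma adjusted p = 5.85e-06) and 1.11 (adjusted p = 1.74e-05) were not told apart, at a difference of 0.03 with a 95% interval from −0.19 to 0.26. The ratio of 588514 to 597258 was 0.357 and 0.448 in dark, 2.81 and 3.20 in blue and 1.14 in each red library. On the genome 588458 and 588514 lie 34626 bp apart on the same strand of scaffold 10, and 597249 and 597258, with opposite responses, lie 4154 bp apart on scaffold 18.

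All 3 carriers of the carnitine and ornithine families were called as rises after blue, although for 628464 the call depended on the scaling. The carnitine-acylcarnitine family is named for the animal carrier that brings fatty acyl groups into the matrix for oxidation. Its member 605060 (scaffold 30, 238899 to 240844, plus strand) was at 4.06 and 5.09 FPKM in dark, 35.5 and 47.8 FPKM in blue and 4.86 and 4.79 FPKM in red libraries. Red and dark levels overlapped (0.07, limma adjusted p = 0.707), whereas blue was 2.93 above dark (adjusted p = 2.43e-07) and 2.86 above red (95% interval 2.51 to 3.20, adjusted p = 8.58e-07). It was blue-only in 13 of 14 alternatives. In TPM its red difference of 0.38 was called (adjusted p = 0.0493, between 0.0493 and 0.818 over the alternatives).

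The other family member, 628464, was at 14.4 and 14.5 FPKM in dark, 21.7 and 18.9 FPKM in blue and 24.7 and 24.9 FPKM in red libraries. It rose by 0.46 after blue (limma adjusted p = 0.00192) and by 0.74 after red (adjusted p = 0.000168). The blue call was lost after quantile normalization (0.17, limma adjusted p = 0.145) and after centring (0.20, adjusted p = 0.105), with adjusted p between 0.000407 and 0.145 over the alternatives. Its level was 0.28 lower after blue than after red (limma adjusted p = 0.0387), a call lost without any single library other than blue replicate 1, with adjusted p between 0.0112 and 0.156 over the alternatives. The ornithine transporter 577902, of a family that in yeast exports ornithine made in the matrix, was at 3.24 and 3.73 FPKM in dark, 22.1 and 24.7 FPKM in blue and 7.39 and 7.30 FPKM in red libraries. It rose by 2.44 after blue (limma adjusted p = 1.18e-07) and 0.90 after red (adjusted p = 0.00012), with the pulses 1.54 apart (adjusted p = 5.86e-06).

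The PET8 family, named for the yeast carrier of S-adenosylmethionine, the methyl donor of most methylation reactions, was the largest KOG family with 8 models. After blue 5 rose and 1 fell (62.5% and 12.5%, against 39.9% and 36.2% of all models), and after red 3 rose and 1 fell (37.5% and 12.5%, against 33.7% and 29.5%). The 5 rises after blue include 592237, which reached 1 FPKM only through the blue libraries. The responses were moderate, and 7 of the 8 were not called between the pulses. By the mean over all libraries its most abundant member was 220413, though 577134 and 629852 were higher in dark. Model 220413 was at 36.0 and 37.5 FPKM in dark, 65.1 and 77.5 FPKM in blue and 76.2 and 78.3 FPKM in red libraries. The rises of 0.93 (limma adjusted p = 1.94e-05) and 1.05 (adjusted p = 2.07e-05) were not told apart (−0.12, 95% interval −0.34 to 0.10), except without blue replicate 2 (−0.24, adjusted p = 0.0414, between 0.0414 and 0.969 over the alternatives). Model 527150 rose from 10.1 to 27.7 and 22.6 FPKM and 577134 from 48.1 to 63.3 and 73.3 FPKM. The exception was 592237, at 0.328 and 0.842 FPKM in dark, 2.72 and 2.96 FPKM in blue and 0.737 and 0.592 FPKM in red libraries, which was 1.21 higher after blue than after red (limma adjusted p = 0.000575). Fewer than 24 fragments, by the same upper estimate, lay behind each of its dark values. It overlaps 12 bp of an AAA-type ATPase model, 556434, on the opposite strand. That model rose from 3.11 to 25.3 FPKM after blue and by less after red, to 4.33 FPKM (log2 0.37, limma adjusted p = 0.027). Of the rest, 629852 fell after both pulses (37.1, 29.1 and 29.9 FPKM), with both calls lost in TPM and without dark replicate 1, and the red call also without red replicate 1 (adjusted p up to 0.374 after blue and 0.705 after red). The rise of 543337 after blue was just past the threshold (limma adjusted p = 0.0416, lost in 7 of 14 alternatives, among them without either dark replicate or blue replicate 2, with adjusted p up to 0.931), and 546943 and 676368 were called after neither.

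Carriers of iron, oxaloacetate, nucleotides and cofactors were single models. The mitoferrin-like 576609 (scaffold 3, 497174 to 499358, minus strand), related to the yeast iron importers MRS3 and MRS4, was at 143 and 149.9 FPKM in dark, 74.8 and 86.9 FPKM in blue and 77.8 and 78.5 FPKM in red libraries. It fell by 0.85 (limma adjusted p = 2.29e-05) and 0.90 (adjusted p = 3.61e-05) after the pulses, which were not told apart (0.04, 95% interval −0.16 to 0.25). It overlaps 77 bp of a C2 domain model, 576606, on the opposite strand, which fell after blue and rose after red.

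The oxaloacetate carrier 586564 was the clearest case of a rise after red alone. It was at 39.3 and 36.5 FPKM in dark, 36.9 and 44.997 FPKM in blue and 61.1 and 67.4 FPKM in red libraries, so dark and blue overlapped and red stood above both. It rose by 0.75 after red (limma adjusted p = 0.000319), and red exceeded blue by 1.57-fold in FPKM (log2 difference −0.64 for blue against red, limma adjusted p = 0.00113). After blue the difference from dark was 0.10 (limma adjusted p = 0.411), and it was called only in TPM (0.35, adjusted p = 0.00735, between 0.00735 and 0.774 over the alternatives).

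Model 552976 belongs to the Rim2 family, which in yeast carries pyrimidine nucleotides. It was at 47.0 and 50.04 FPKM in dark, 37.0 and 39.1 FPKM in blue and 48.8 and 51.1 FPKM in red libraries, with dark and red overlapping. It fell by 0.34 after blue (limma adjusted p = 0.00437) and was 0.38 lower than after red (adjusted p = 0.00432). In TPM it was called as a rise after red (0.39, limma adjusted p = 0.00178). The blue call was lost without dark replicate 2 (−0.30, limma adjusted p = 0.0619) and in TPM (−0.09, adjusted p = 0.277), with adjusted p between 8.02e-05 and 0.277 over the alternatives, and 1339 bp overlap a TRAPP complex model, 663238, on the opposite strand. The FAD carrier family member 595771 rose slightly after both pulses (14.8, 21.8 and 19.6 FPKM), the red call being lost in 4 of 14 alternatives, which include leaving out dark replicate 1 or red replicate 1. Model 606896, described as the GTP/GDP transporter Ggc1 of yeast mitochondria, rose from 7.60 ± 0.396 FPKM in dark to 24.8 ± 1.23 in blue and 14.8 ± 2.06 in red libraries (SD, n = 2), by 1.58 (limma adjusted p = 1.85e-06) and 0.87 (adjusted p = 0.000168) on the log2 scale.

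**Figure D4:**
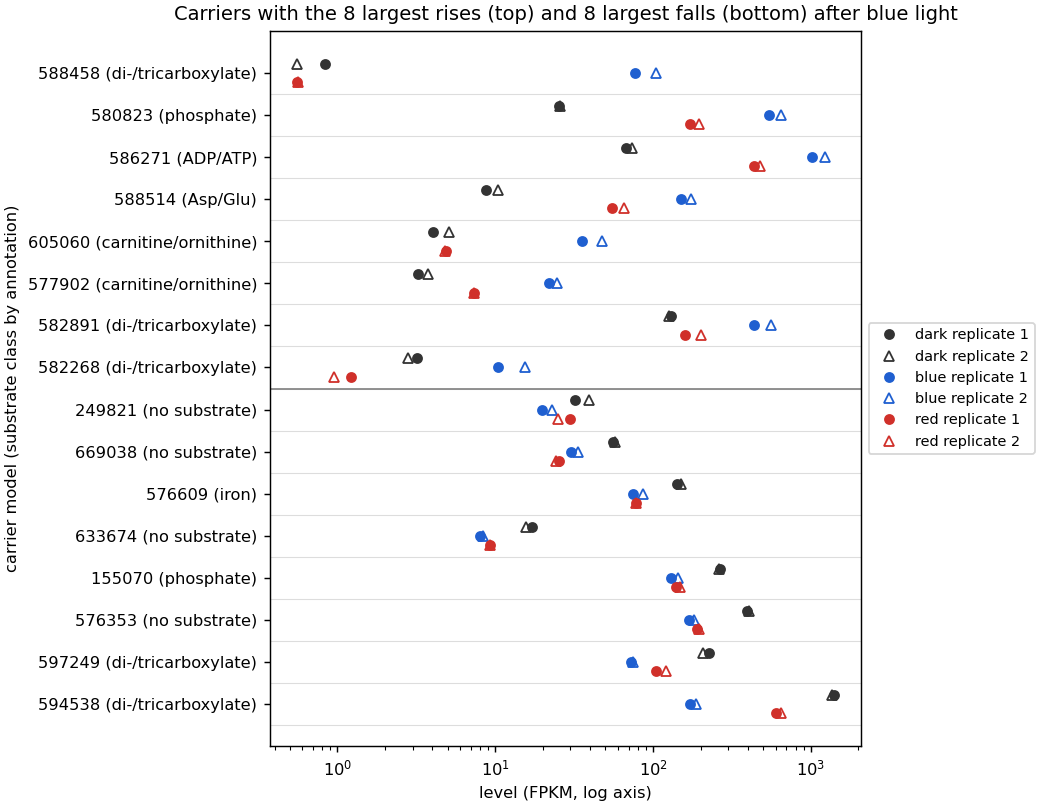
Level in each library (FPKM, log axis) of the carriers with the 8 largest called rises (above the line) and the 8 largest called falls after blue light. The blue points of 588458, 605060 and 582268 stand apart from dark and red points, which lie close together or, for 582268, in the order red, dark, blue, while among the falls the blue and red points mostly lie side by side below the dark points.

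For 16 models the descriptions name no substrate. After blue 8 of them rose and 5 fell (50% and 31.2%, against 39.9% and 36.2% of all models), and after red 8 rose and 4 fell (50% and 25%, against 33.7% and 29.5%). The 8 rises after blue include 583860, which reached 1 FPKM only through the blue libraries. The most abundant of the 16, 576353 (scaffold 3, 307726 to 309537, plus strand), was at 392 and 408 FPKM in dark, 169.7 and 181 FPKM in blue and 191 and 196 FPKM in red libraries. It fell by 1.19 after blue (limma adjusted p = 1.2e-06) and by 1.04 after red (adjusted p = 7.54e-06). In TPM, after quantile normalization and after centring its level after blue was also called lower than after red (−0.24, −0.25 and −0.25, limma adjusted p between 0.0148 and 0.337 over all alternatives).

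Further falls shared by the pulses were smaller in level. Model 633674 was at 17.1 and 15.7 FPKM in dark, 8.05 and 8.40 FPKM in blue and 9.23 and 9.32 FPKM in red libraries, falls of 0.91 (limma adjusted p = 2.64e-05) and 0.76 (adjusted p = 0.000168). Model 249821 was at 32.0 and 39.4 FPKM in dark, 19.9 and 22.9 FPKM in blue and 29.9 and 24.99 FPKM in red libraries. Its fall of 0.71 after blue (limma adjusted p = 0.000832) exceeded the spread between replicates, but its fall of 0.37 after red (adjusted p = 0.0346) was lost without dark replicate 2 (−0.22, adjusted p = 0.268), without red replicate 2 (−0.24, adjusted p = 0.232), in TPM and without the filter, with adjusted p between 0.00492 and 0.878 over the alternatives. Model 669038 was at 56.2 and 57.6 FPKM in dark, 30.1 and 33.6 FPKM in blue and 25.3 and 24.3 FPKM in red libraries. It fell by 0.82 (limma adjusted p = 2.42e-05) and 1.17 (adjusted p = 6.99e-06). The lower level after red (0.35 below blue, limma adjusted p = 0.00991) lost its call when red replicate 2 was left out (0.32, adjusted p = 0.0551), and 4 other models overlap it.

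Rises without a named substrate were led by 583860, at 0.607 and 0.557 FPKM in dark, 3.75 and 4.53 FPKM in blue and 0.743 and 1.11 FPKM in red libraries. Blue exceeded dark by 1.70 (limma adjusted p = 9.39e-06) and red by 1.42 (adjusted p = 8.81e-05). This model reached 1 FPKM only through the blue libraries and so had to be higher there. Model 674000, similar to the animal carrier SLC25A40, rose after blue only (13.5, 20.7 and 12.5 FPKM), but after quantile normalization it lost this call (0.29, limma adjusted p = 0.0667) and was called as a fall after red (−0.33, adjusted p = 0.0484). Model 579028 fell after blue only (39.2, 32.5 and 41.9 FPKM), a call lost without either dark replicate and in TPM (−0.01, limma adjusted p = 0.891). In TPM it was called as a rise after red (0.44, limma adjusted p = 0.00136). Rises larger after blue were called for 599720 (17.3, 46.6 and 22.2 FPKM) and 223765 (34.0, 87.3 and 62.1 FPKM). The first was blue-only in 9 of 14 alternatives, since its red rise of 0.34 (limma adjusted p = 0.0391) was lost without any 1 of the dark or red replicates and in 5 other settings (adjusted p up to 0.316). The second lost its called difference between the pulses in 6 of 14, leaving out blue replicate 1 or either red replicate among them, and lies wholly within a Vps26-related model, 604424, on the opposite strand. After red 597789 alone of these 16 rose with no called change after blue and a called difference between the pulses (21.5, 18.5 and 30.8 FPKM). It was called as a fall after blue following quantile normalization and centring (−0.47 in each) and without blue replicate 2 (−0.28, limma adjusted p = 0.0299). Model 591727 rose more after red (15.8, 22.3 and 34.1 FPKM) than after blue, while its divergent neighbour 591724, 110 bp away, is the tricarboxylate/dicarboxylate carrier that was called after neither pulse. Similar rises after both pulses were called for 543239 (6.54, 14.2 and 12.3 FPKM), 598277 (9.91, 12.4 and 15.1 FPKM) and 555161 (26.8, 31.5 and 36.8 FPKM). The blue calls of 598277 and 555161 held in 6 and 9 of 14 alternatives. Both were lost without either dark replicate, that of 598277 also without either red replicate or blue replicate 2, and that of 555161 without blue replicate 1 (adjusted p up to 0.816 and 0.834 over the alternatives). After quantile normalization and centring both were called after red only. The log2 rises after blue were then 0.03 in both settings for 598277, and −0.02 and −0.04 for 555161. Model 578990, whose blue libraries differed most (17.7 and 9.002 FPKM), was not called in any comparison, but without blue replicate 2 it was called higher after blue than in dark (0.56, limma adjusted p = 0.0331) and than after red (0.91, adjusted p = 0.00713).

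**Figure D5:**
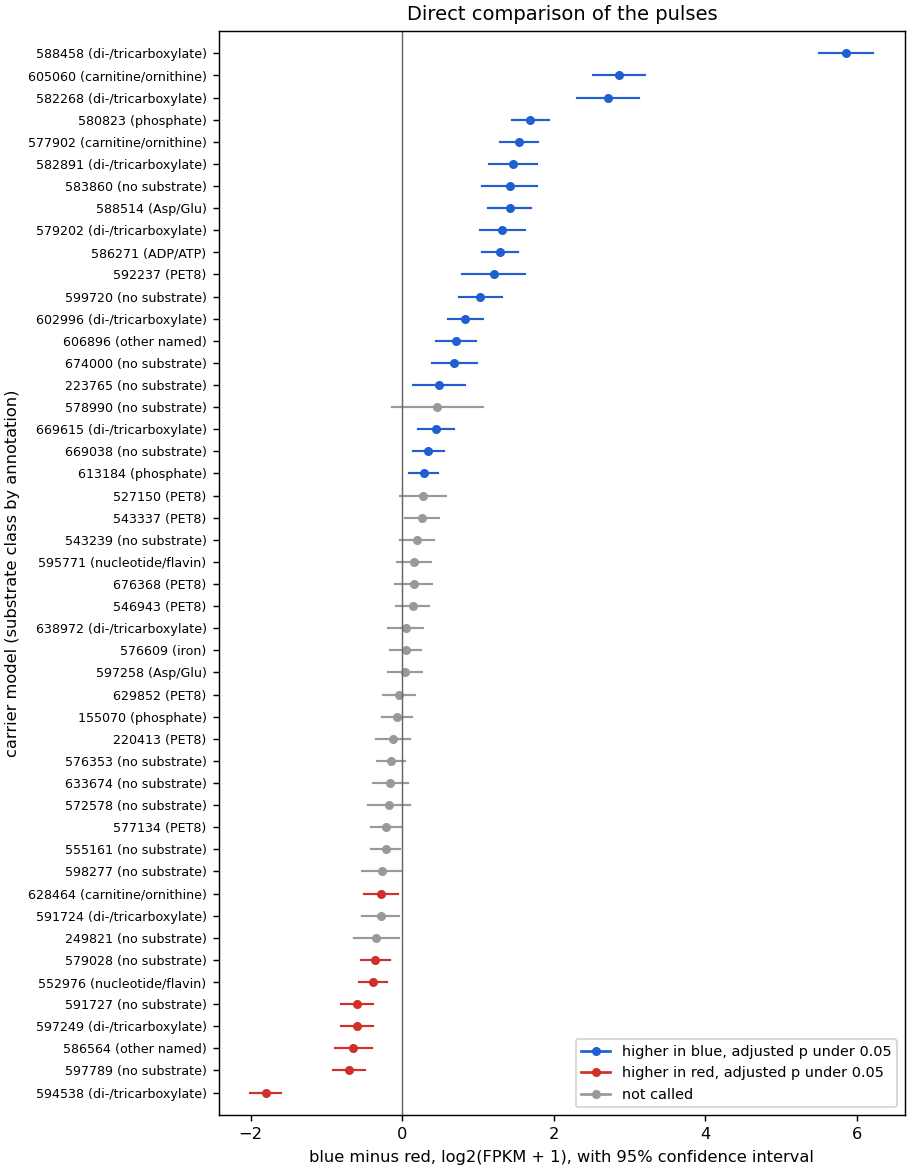
Direct comparison of the pulses for all 48 carriers: the blue minus red difference on the log2(FPKM + 1) scale with its 95% confidence interval from the limma fit, in colour where adjusted p was under 0.05. 588458, 605060 and 582268 lie farthest to the right at 5.86, 2.86 and 2.71, 594538 farthest to the left at −1.80, and 21 carriers were not called.

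Other parts of mitochondrial function were set beside the carriers by word lists on the same descriptions, chosen with earlier results known and counted without a test. The counts are to be read against the 39.9% and 36.2% of all models that rose and fell after blue, and the 33.7% and 29.5% after red. Of 18 protein import models, 8 rose and 4 fell after blue (44.4% and 22.2%, median log2 difference 0.09), and 5 rose and 5 fell after red (27.8% each). The Tim17/22/23 family model 603991, of the inner membrane import channel, rose from 23.8 FPKM in dark to 56.5 in blue and 49.8 in red libraries. Of 59 respiratory chain and ATP synthase models, 29 rose and 15 fell after blue (49.2% and 25.4%, median 0.19), and 18 rose and 15 fell after red (30.5% and 25.4%, near all models). Within that list alternative oxidase 533931, which passes electrons from ubiquinol to oxygen without pumping protons, was at 8.26, 38.8 and 9.35 FPKM in dark, blue and red libraries, called after blue and not after red. The more abundant alternative oxidase 605803 fell after blue (105, 64.4 and 89.8 FPKM, log2 −0.70, limma adjusted p = 0.000261), and 587919 rose slightly after both pulses (8.21, 10.6 and 11.2 FPKM). The list also took in plastid subunits such as the ATPase gamma subunit 601967 (71.5, 271 and 197 FPKM).

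Of 27 citrate cycle models, 10 rose and 13 fell after blue (37% and 48.1%, median −0.21), and 6 rose and 14 fell after red (22.2% and 51.9%). Mitochondrial aconitase 550420, which converts citrate to isocitrate, fell from 809 to 371 and 389 FPKM. ATP-citrate synthase 537227, a cytosolic enzyme in animals that the word list also caught, rose from 6.62 to 48.6 and 42.0 FPKM. Succinate dehydrogenase flavoprotein 576401 (117, 173 and 59.1 FPKM) and malate dehydrogenase 629521, described as cytoplasmic (14.5, 27.5 and 5.98 FPKM), rose after blue and fell after red, as 582268 did. These examples were picked after their values were seen. Of 25 models in the list of other membrane transport, 9 rose and 9 fell after blue (36% each, median 0.03), and 11 rose and 3 fell after red (44% and 12%). This list includes the porin 126044, a channel of the outer membrane (1231, 670.1 and 783 FPKM), and the mitochondrial pyruvate carrier 581407, which was called after neither pulse (129.5, 118 and 118 FPKM). The word porin also caught aquaporins and nucleoporins, which are not mitochondrial transporters.

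The wording of the rule left out 6 models with the InterPro description of a substrate or solute carrier, 5 of them tested. Among these, 584331, described as an oxoglutarate/malate translocator, was at 6.92 and 6.69 FPKM in dark, 138 and 211 FPKM in blue and 28.8 and 33.1 FPKM in red libraries. It rose by 4.46 after blue (limma adjusted p = 4.39e-08) and by 2.03 after red, a rise of the size seen in 580823. Uncoupling protein 4-like 602455 rose from 2.45 to 11.3 FPKM after blue and by less after red, to 3.81 FPKM (log2 0.48, limma adjusted p = 0.00574). Models 604133 (4.64, 2.25 and 3.34 FPKM), 615698 (2.62, 5.22 and 4.80 FPKM) and 574201 (16.5, 18.7 and 24.5 FPKM) had smaller differences, and 586722 averaged 0.867 FPKM. With the 5 tested ones added, 44 of 53 models were called after blue, where 76.1% of all tested models were. Of the 44, 32 rose (background 39.9%) and 12 fell (36.2%). The number of blue-only rises was again 6 (background 7.62%).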

How the data were processed

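The authors deposited, per the file headers, an FPKM and a TPM value for each library and gene model (Nanoce1779_2 models). Their table also holds log2 fold changes between each pulse and darkness with p-values and q-values, deposited alongside. The submitters' processing notes list FastQC, TopHat, Cufflinks, Cuffnorm and Cuffdiff, with neither version nor role. The strand setting, the filters and any scaling between libraries could not be read from these sources.

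Models averaging 1 FPKM or more over the libraries (9087) were fitted on log2(FPKM + 1) with limma 3.58.1 in R 4.3.3, in 1 model of all 6 libraries (3 residual degrees of freedom, variance trend, two-sided). P-values were Benjamini-Hochberg adjusted over all of them, with a threshold of 0.05. The pseudocount of 1 makes fold changes of low models too small. The fit was tested on simulated data, in which few models changed, only after blue, and no library differed in scale. That test cannot show how the calls depend on scaling or on changes in most models. Depth was estimated from steps between low values, since the files hold no counts: of 1333 low models checked, 539 had values that were whole multiples of 1 fragment within 0.15, and the 143 of them on a common line of fragments against span gave the depth. No count test was run. FPKM sums ranged from 588091.6 to 767746.9 per library.

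The carriers, their substrate classes and the other lists were chosen with earlier results of these data known. Values in every library are given for the 3 carriers named outright, the 8 largest called rises and falls after blue, the 4 largest after red, opposite changes, the 5 highest in dark and the most abundant of each substrate class. They are also given for 583860 and 592237, near the level threshold, and for 584331, chosen after its values were seen. Alternatives were TPM, quantile normalization, median centring, pseudocounts of 0.1 and 5, no filter, no variance trend, leaving out each library and a replicate block. Added after seeing the data were the 45 carriers with 1 FPKM in dark or red libraries and the rule widened by the InterPro description. Reference tables held no nuclear gene or sequence of this strain, so no sequence is printed.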

Additional observations from a re-analysis of the deposited data

How the results depend on the processing

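The calls after blue were 35 to 41 of 48 over the 14 alternative settings, and after red 30 to 40. In the main fit, 76.1% of all models were called after blue, 63.3% after red and 50.7% between the pulses. For the 3 scalings the shares of all models that rose and fell are given above. For the other settings and for the classes no such share is given, so these counts describe stability only. Carriers lower after blue than after red numbered 14 instead of 8 in TPM, after quantile normalization and after median centring. Blue-only rises numbered 3 instead of 6 in TPM, where 605060, 583860 and 602996 were called after red too, and 3 among the carriers with at least 1 FPKM in dark or red libraries. Blue-only falls numbered 1 instead of 2 in TPM, and that 1 was 249821. Models 579028 and 552976 were both called there as rises after red only. Model 579028 also lost its class without either dark replicate, and 552976 without dark replicate 2. Shared rises numbered 12 instead of 20 after median centring. The cause of these shifts was not tested. No call of a named carrier was reversed in any alternative. Over named carriers and comparisons, 869 values kept their direction and side of the threshold, 22 lost the call, 13 gained it and 20 moved without a call. Counted as blue-only, shared (whichever pulse was larger), opposite or other, 22 of 48 carriers kept their class in every alternative, among them 588458, 592237, 582268, 580823, 586271, 588514, 594538 and 597249. Of the 8 blue-only carriers, only 2 kept their class throughout, 588458 and 592237. Both reached 1 FPKM only through the blue libraries and so had to be higher there. With a replicate block, 40 carriers were called after blue, 35 after red and 29 between pulses (27 without it), with 7 blue-only rises. Deviations of same-numbered libraries correlated at 0.09 (dark and blue), −0.08 (dark and red) and 0.34 (blue and red), so the numbers were not taken as pairs. The titles also end in D.1 and D.3, B.1 and B.3, and R.2 and R.3, with no word on the numbers skipped. By these endings red replicate 1 has another number than dark and blue replicate 1. The block and the correlations followed the replicate numbers, not these endings. With 2 libraries a group, the spread rests on 3 residual degrees of freedom, and leaving 1 out assumes that the lone library varies like the others. Values under 1 FPKM rest on few fragments.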
